A study of Homo sapiens with 4 samples.

Results

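The circadian clock genes PER1, PER2, PER3, CRY1, CRY2, CLOCK, ARNTL, DBP, TEF and BHLHE40 were measured in THP1 cells, a human monoblastic acute myeloid leukemia line that carries the fusion gene MLL-AF9. They were taken by name, as every non-control probe that the array's own annotation assigns to 1 of these symbols, which gave 10 genes with 13 probes among 27193 annotated gene names with 34127 probes. Cells received a single dose of 30 nM miR-511-5p mimic (here miR-511) or of the negative control #1 mimic, were kept in low-serum medium with albumin, and gave total RNA on day 2. Each mimic was used once in experiment 1 and once in experiment 2, so that 4 single-colour whole genome arrays were available, 2 per mimic and 2 per experiment. All arrays came from 1 cell line, and a mimic raises the miRNA from outside the cell. RNA was taken on 1 day only, and a step that synchronises the cells and the hour of harvest are not given in the sources used here, so levels on that day were measured and no rhythm.

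The circadian clock is a feedback loop of transcription. CLOCK and ARNTL, which RefSeq now lists as BMAL1, form a heterodimer that binds E-box elements and switches on the PER and CRY genes, whose proteins return to the nucleus and repress the heterodimer. DBP and TEF are output activators that bind D-box elements, and BHLHE40 (DEC1) is a repressor that competes at E-boxes, so the same loop passes its timing on to many other genes, in blood cells as in other tissues.

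The mature miR-511-5p that the mimic stands for is shown because every comparison by mimic rests on it. Capitals mark the seed, bases 2 to 8, which pairs with target mRNAs, and the sequence is that of RefSeq at GRCh38.p14 chr10:17845122-17845142 on the plus strand.
hsa-miR-511-5p: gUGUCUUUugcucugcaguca
The DNA letters that pair with this seed, AAAGACA, occurred in 0 of the 13 clock probes and in 0.97% of all 34127 probes. A probe is a stretch of 60 bases, so this describes the probes and not the transcripts.

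The loop's own elements, E-box and D-box, were looked for in RefSeq promoter windows (250 bases before to 50 after each start, GRCh38.p14). The E-box CACGTG was present in windows of 3 of the 10 genes, against 8.77% of all 27305 genes with a window. The D-box, searched as TTATGTAA or TTACGTAA on both strands, was present for 2 of the 10 genes, against 1.27% of all genes. A match describes letters and not a bound site. The windows are given as 30 bases with the element in capitals, and TEF has 2 start sites whose windows each hold an E-box.
PER1, chr17:8152560-8152589, minus strand: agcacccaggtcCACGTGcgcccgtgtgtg
BHLHE40, chr3:4979187-4979216, plus strand: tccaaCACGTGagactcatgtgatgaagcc
TEF, chr22:41367248-41367277, plus strand: gcgcgacagctcCACGTGctgcagctggcg
TEF, chr22:41381737-41381766, plus strand: cacctggccccgCACGTGtctatcttatcc
PER2, chr2:238288595-238288624, minus strand: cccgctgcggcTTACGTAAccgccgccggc
PER3, chr1:7784103-7784132, plus strand: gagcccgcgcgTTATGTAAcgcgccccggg

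Markers of the labelled cell type were looked for first. Of the 8 monocytic markers, 6 had a probe under that symbol (CD33, CSF1R, CTSG, ITGAM, MPO and SPI1), and all 6 were well above background on all 4 arrays. Of 7 markers of other lineages, 4 were also above background on all 4 arrays, among them the T cell gene CD3D and the erythroid gene HBB, while CD3E was on 3 arrays and MS4A1 and EPCAM were on none. Their part in the results was not tested. Between 22130 and 23647 probes per array were well above background, the fewest on the array of miR-511 in experiment 1, and no spot was saturated. The number of arrays limits the precision.

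All 10 clock genes were detected. Of the 13 probes, 12 (92.3%) were well above background on all 4 arrays, against 63.4% of all probes, and the remaining PER3 probe was above it on 3. Levels are given below as normalized log2 intensity of a probe, in the order miR-511 and control in experiment 1, then miR-511 and control in experiment 2. Differences are log2 differences, miR-511 minus control, or experiment 2 minus experiment 1, with the standard error (SE) of limma's moderated fit over all 22638 tested probes. A level belongs to its own probe and is set against no other probe, and in bulk RNA fewer cells expressing a gene and less RNA per cell cannot be told apart.

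With miR-511, DBP was called higher and 1 of the 2 PER3 probes lower at the unadjusted threshold of 0.05 that the study's methods use. The other 11 probes passed in neither direction. That PER3 probe was not well above background on 1 miR-511 array and entered the test only through the control arrays, where it was higher, so its call is given as a value and not as support for a fall. The 2 of 13 clock probes stand against 2.2% of all tested probes, 498 of 22638. Where all 4 arrays had to be well above background, 1 of 12 clock probes was called, DBP, against 393 of 21608 tested probes. After Benjamini-Hochberg adjustment over all tested probes 0 of the 13 were called, as was 0% of the whole array, where the smallest adjusted p by limma was 0.79. Between the experiments 0 of the 13 clock probes were called at the unadjusted threshold, where 13.6% of all tested probes were, and a plain test of each probe called none of the 13 either. After adjustment 0% of the array was called between experiments, with a smallest adjusted p of 0.215 by limma.

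**Figure D1:**
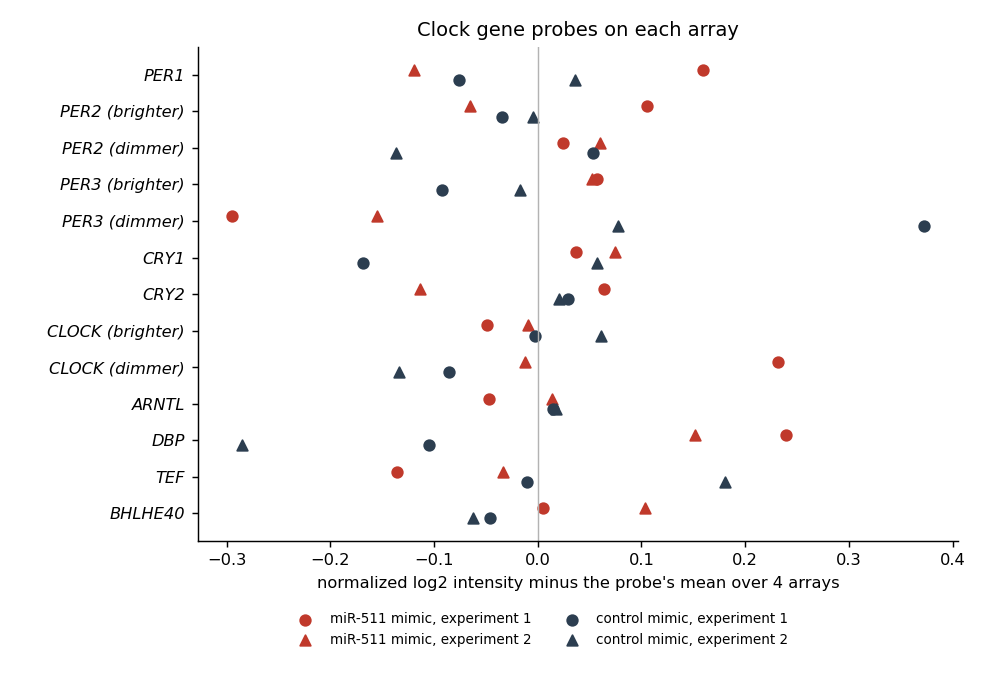
Normalized log2 intensity of the 13 clock gene probes on the 4 arrays, each as its distance from the probe's mean. Red marks miR-511, dark blue the control mimic, circles experiment 1 and triangles experiment 2, and where a gene has 2 probes they are named brighter and dimmer. Both miR-511 points of DBP lie above both control points, those of the dimmer PER3 probe lie below, and the points of PER1 and CRY2 are mixed.

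The PER and CRY genes form the negative limb, whose proteins repress CLOCK and ARNTL. PER1, a period protein whose transcript also answers quickly to outside signals, was measured at 8.69, 8.46, 8.41 and 8.57 (probe A_23_P89589, hg19 chr17:8044267-8044326). The arrays of both mimics overlapped, as did those of both experiments. The log2 difference by mimic was 0.039 (SE 0.14), made of 0.23 in experiment 1 and -0.16 in experiment 2, so that its direction turned between the experiments.

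PER2, a period protein that carries CRY into the repressing complex, had 2 probes. The brighter (A_23_P209320, hg19 chr2:239152817-239152876) gave 11.29, 11.15, 11.12 and 11.18, and the dimmer (A_23_P411162, hg19 chr2:239174162-239174221) gave 8.05, 8.08, 8.09 and 7.89. At both probes the mimic groups overlapped and the direction turned between the experiments, each probe the other way. The log2 difference by mimic was 0.045 (SE 0.11) at the brighter probe and 0.084 (SE 0.11) at the dimmer.

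PER3, the third period gene, had 2 probes whose directions by mimic were opposite, as CLOCK did. The brighter (A_24_P230948, hg19 chr1:7863774-7863833) gave 4.36, 4.21, 4.35 and 4.28, a log2 difference by mimic of 0.11 (SE 0.092). The dimmer (A_24_P291231, hg19 chr1:7904641-7904700) gave 3.95, 4.61, 4.09 and 4.32. After normalization both miR-511 arrays lay above both control arrays at the brighter probe, and below both at the dimmer probe. The brighter probe was also dim, with processed intensities of 17.5 and 22.1 with miR-511 and 20.6 and 19.1 with the control. Its miR-511 array of experiment 1 thus lay below both control arrays before normalization. Its log2 difference by mimic was 0.059 with 75th percentile scaling and 0.0089 with normexp background correction.

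At the dimmer PER3 probe the fitted log2 difference was -0.45 (SE 0.14), with an adjusted p of 1.00 by limma, and it had the same direction in both experiments, -0.67 and -0.23. The spot was near background: its processed intensity was 13.0 and 18.3 with miR-511 and 26.6 and 19.6 with the control, and on the miR-511 array of experiment 1 it was not well above background, so that 1 of 2 miR-511 arrays measured it and the size of the difference is uncertain. The probe was called under 4 of the 8 other settings that tested it. This call did not hold under normexp background correction, where the log2 difference was -0.069, nor with an intensity trend or the plain test, both at -0.45, nor in 3 of the 4 fits that left out 1 array. Over those 4 fits the difference ran from -0.60, in the fit that kept the call, to -0.30. With the experiment as a block the value was the same and its unadjusted limma p was 0.0567. The call was kept without the control array of experiment 2, and lost without either miR-511 array or the control array of experiment 1. PER3 was also on a disease gene list that the study drew from these same arrays, which is not independent evidence of its direction.

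CRY1, a cryptochrome and the stronger repressor of the heterodimer, was measured at 8.20, 8.00, 8.24 and 8.22 (probe A_24_P407235, hg19 chr12:107385482-107385541). The control array of experiment 1 was the lowest, the mimics overlapped and the experiments did not. The log2 difference was 0.11 (SE 0.12) by mimic and 0.13 (SE 0.098) by experiment. CRY2, the other cryptochrome, was measured at 10.02, 9.99, 9.84 and 9.98 (probe A_23_P127394, hg19 chr11:45904680-45904739). Here both arrays of experiment 2 lay below both of experiment 1, by narrow margins, while the mimics overlapped. The log2 difference was -0.049 (SE 0.11) by mimic and -0.093 (SE 0.082) by experiment, neither past the threshold.

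CLOCK and ARNTL form the positive limb. ARNTL, the partner that gives the heterodimer its rhythm in many tissues, was measured at 9.83, 9.90, 9.89 and 9.90 (probe A_23_P162037, hg19 chr11:13408583-13408642), and its 4 arrays lay within 0.065 of each other, the narrowest range of the 13 probes. After normalization the miR-511 arrays were both below the control arrays, and the log2 difference was -0.033 (SE 0.091). CLOCK, the partner with histone acetyltransferase activity, gave 6.85, 6.90, 6.89 and 6.96 at its brighter probe (A_33_P3358938, hg19 chr4:56301031-56301090). Its dimmer probe (A_23_P419038, hg19 chr4:56299106-56299165) gave 6.67, 6.35, 6.42 and 6.30. Neither probe's mimic groups overlapped after normalization, yet they pointed opposite ways, with log2 differences by mimic of -0.058 (SE 0.092) and 0.22 (SE 0.12). By experiment the signs were turned again, 0.052 (SE 0.072) and -0.15 (SE 0.14). None of these passed the threshold.

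Of the output activators, DBP was the member with the largest log2 difference by mimic among the probes above background on all 4 arrays. DBP, a PAR bZIP factor whose transcript cycles strongly in many tissues, was measured at 8.00, 7.65, 7.91 and 7.47 (probe A_23_P130753, hg19 chr19:49136746-49136805), from processed intensities of 225, 214, 259 and 177. Both miR-511 arrays lay above both control arrays before and after normalization, but before it by a small margin in experiment 1 (225 against 214). That miR-511 array had the lowest median unnormalized log2 intensity of the 4 arrays, 6.53 against 6.80 for the control of experiment 1. The log2 difference was 0.39 (SE 0.11, 95% interval 0.083 to 0.70), or 1.31-fold, with an adjusted p of 1.00 by limma, and it was 0.34 in experiment 1 and 0.44 in experiment 2. With the experiment as a block its SE was 0.082 and the call stood. It was called under 8 of 9 other settings, the exception being the plain test, with values from 0.24 (normexp) to 0.39. Leaving out 1 array gave values from 0.30 to 0.48, and only the fit without the control array of experiment 1 kept the call. Leaving out either miR-511 array or the control array of experiment 2 ended it, in fits where the lone array is assumed to vary like the other group.

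TEF, the other PAR bZIP factor and a D-box activator like DBP, was measured at 6.58, 6.70, 6.68 and 6.90 (probe A_24_P151582, hg19 chr22:41794580-41794639). Both miR-511 arrays lay below both control arrays, the direction opposite to that of DBP. The log2 difference was -0.17 (SE 0.12), with -0.12 in experiment 1 and -0.21 in experiment 2, and did not pass the threshold. By experiment TEF differed by 0.15 (SE 0.11) on the log2 scale, the largest positive value among the members, and DBP by -0.13 (SE 0.21).

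BHLHE40, the E-box repressor, was measured at 9.22, 9.16, 9.31 and 9.15 (probe A_24_P268676, hg19 chr3:5026260-5026319). After normalization both miR-511 arrays lay above both control arrays, that of experiment 1 by a small margin. Before it the processed intensities were 524 and 688 with miR-511 and 603 and 567 with the control, so the groups overlapped. The log2 difference was 0.11 (SE 0.095) by mimic and 0.042 (SE 0.090) by experiment, and neither passed.

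**Figure D2:**
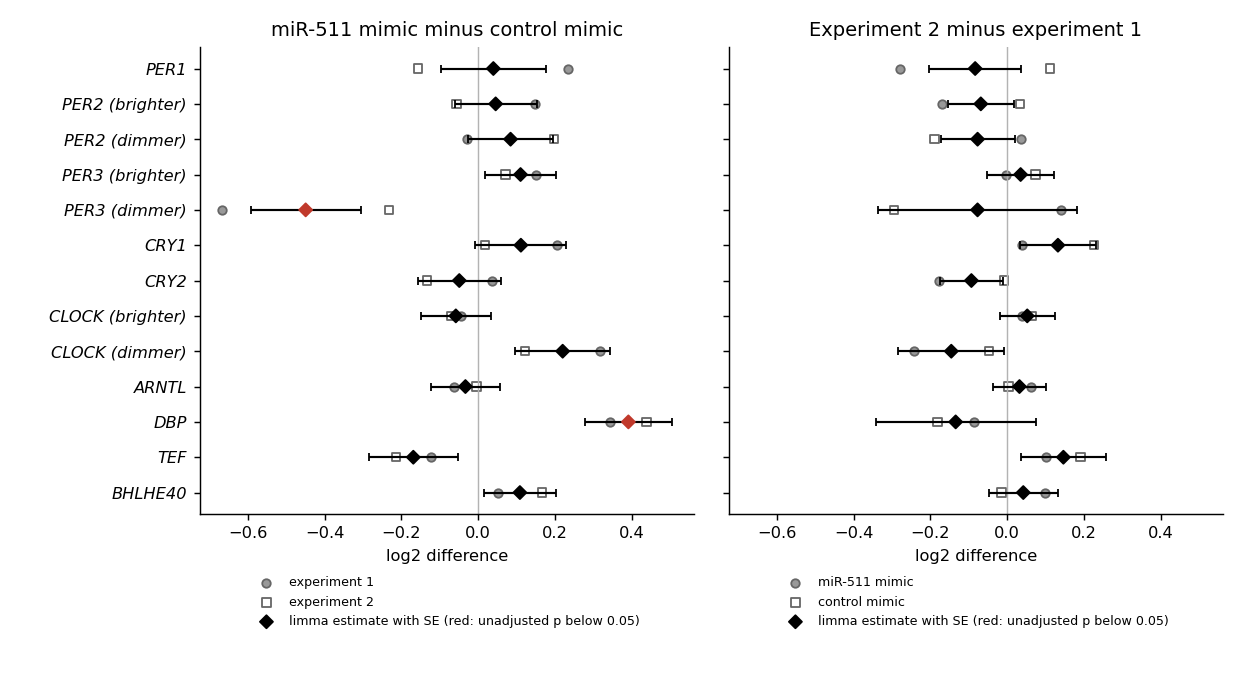
Log2 differences of the 13 clock gene probes by mimic (left) and by experiment (right), with limma's estimate and SE as diamonds (red where the unadjusted p was below 0.05) and the single-array differences within each experiment or mimic as grey circles and open squares. By mimic DBP stands at 0.39 and the dimmer PER3 probe at -0.45, and by experiment every estimate lies between -0.15 and 0.15.

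Taken by direction, 8 of the 13 clock probes had a log2 difference above 0 by mimic and 5 below, against 53.7% above 0 over all tested probes. At the brightest probe of each gene, 6 of the 10 genes were above 0 (PER1, PER2, PER3, CRY1, DBP and BHLHE40) and 4 below (CRY2, CLOCK, ARNTL and TEF), with PER2 and CRY2 on the other side of 0 under normexp background correction. Both signs occurred among the negative limb genes and among the output activators. The direction was the same in both experiments for 9 of 13 clock probes, or 69.2%, and for 51% of all tested probes. The miR-511 and control arrays did not overlap at 8 of 13 clock probes, or 61.5%, where 25.7% of all tested probes did not overlap. These 8 were both probes of PER3, both of CLOCK, and those of ARNTL, DBP, TEF and BHLHE40. The 2 probes of PER3 separated in opposite directions, as did the 2 of CLOCK. The dimmer PER3 probe, also among the 9, entered the test only through the control arrays, where it was higher, and supports neither share. The nearest arrays of the groups lay at 9.894 and 9.895 for ARNTL, and at 6.889 and 6.896 for the brighter CLOCK probe. Before normalization the groups overlapped at ARNTL, BHLHE40 and the brighter probes of CLOCK and PER3. With 2 arrays against 2 an exact permutation test of 1 probe cannot give a p below 0.333.

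Between the experiments the order was turned. Arrays of experiments 1 and 2 did not overlap at 2 of 13 clock probes, CRY1 and CRY2, or 15.4%, where 48.9% of all tested probes did not overlap. The median absolute log2 difference of the 13 clock probes was 0.11 by mimic and 0.077 by experiment, and over all tested probes it was 0.079 and 0.12. At 4 of the 13 clock probes the difference by experiment was larger than that by mimic, against a larger share of all tested probes, 14043 of 22638. No test was made of these counts, since the genes were chosen with results known and are not independent of one another.

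**Figure D3:**
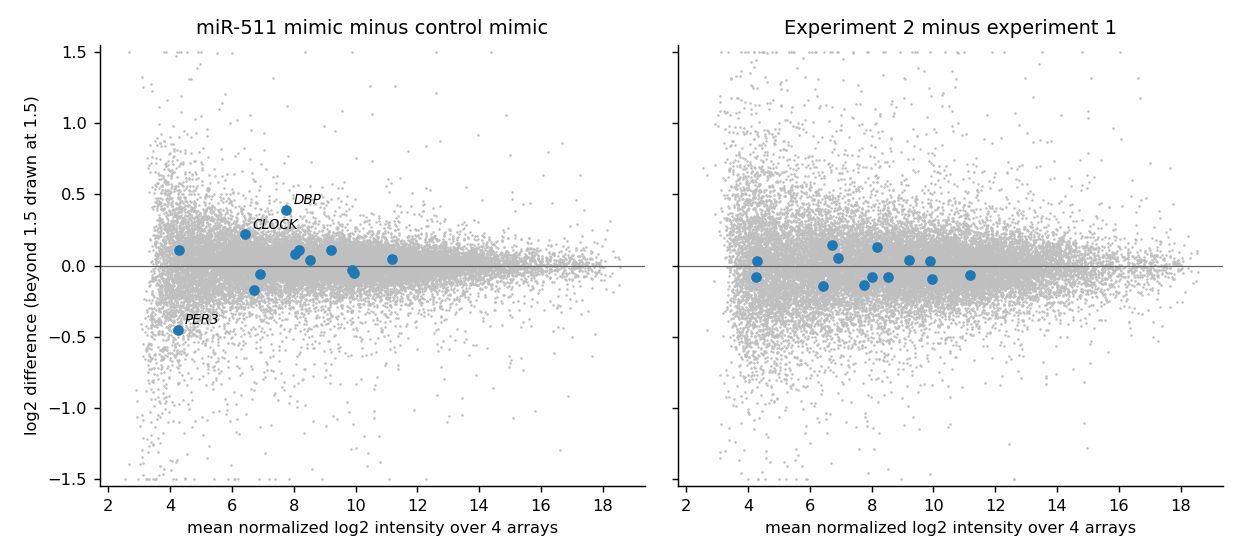
Log2 difference against mean normalized log2 intensity for all 22638 tested probes (grey), by mimic (left) and by experiment (right), with the 13 clock gene probes in blue and those beyond 0.2 named. The clock probes lie within the grey cloud, apart from DBP near its upper edge by mimic, and the grey cloud widens at low intensity, where both PER3 probes lie.

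For the 11 clock probes not called by mimic, the log2 differences ran from -0.17 to 0.22. The lowest bound of their 95% intervals was -0.49, at TEF, and the highest 0.56, at the dimmer CLOCK probe. The interval reached the 0.391 of DBP at PER1, CRY1 and the dimmer CLOCK probe, and at the dimmer PER2 probe it ended just below, at 0.387. It reached the -0.45 of the dimmer PER3 probe only at TEF. DBP had an interval of its own from 0.083 to 0.70, and the dimmer PER3 probe from -0.84 to -0.056. These bounds therefore do not show that a probe differed from DBP or from that PER3 probe, which was not tested. For the 13 probes by experiment the bounds were -0.80 and 0.65.

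Other genes of the clock pathway were read from a list of 19 with 22 probes, of which 16 probes for 13 genes were tested. By mimic 0 of the 16 were called by limma at the unadjusted threshold and 1 by the plain test, and 8 were above 0 and 8 below. The tested genes included the paralogs NPAS2 and ARNTL2, the nuclear receptors NR1D1, NR1D2 and RORB, the D-box repressor NFIL3, the kinases CSNK1D, CSNK1E and CSNK1A1, the F-box protein BTRC, TIMELESS, and the deubiquitinase USP2. The probes of RORA, HLF, FBXL21 and C1orf51 were above background on no array, and that of BHLHE41 on 1.

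NR1D1 (REV-ERBα), the receptor that represses ARNTL in the second loop of the clock, was the 1 probe of the 16 called by experiment, against 13.6% of all tested probes. It was measured at 7.58, 7.52, 7.82 and 7.78 (probe A_24_P250227, hg19 chr17:38251199-38251258), both arrays of experiment 2 above both of experiment 1. The log2 difference by experiment was 0.25 (SE 0.069), with an adjusted p of 0.311 by limma, against 0.044 (SE 0.15) by mimic. It was called under 9 of 9 other settings, but in 0 of the 4 fits that each left out 1 array (0.22 to 0.28), so that the call needed every array. ARNTL, which NR1D1 represses, differed by 0.032 (SE 0.069) on the log2 scale between the same experiments.

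TIMELESS, a replication fork protein that also binds PER and CRY, was singled out after its values were seen because 1 array stood apart. It was measured at 12.84, 13.78, 13.78 and 13.76, low only on the miR-511 array of experiment 1. The log2 difference by mimic was -0.46 (SE 0.34) and that by experiment 0.46 (SE 0.34), and neither passed.

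**Figure D4:**
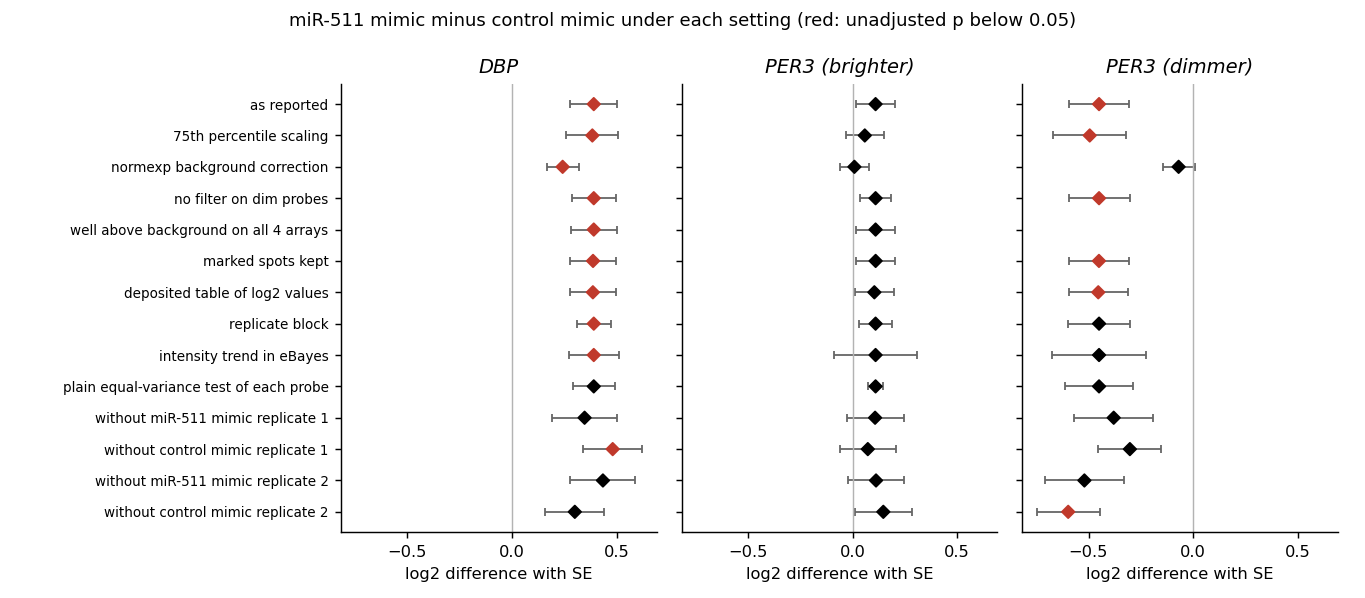
Log2 difference, miR-511 minus control, with its SE for DBP and both PER3 probes under each way of processing the arrays (red where the unadjusted p was below 0.05). DBP stays between 0.24 and 0.48, and the dimmer PER3 probe moves from -0.45 to -0.069 under normexp and has no value where all 4 arrays had to be above background.

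The pattern of DBP, which had the widest range over the 4 arrays among members above background on all of them, was set against that of 19114 other named probes. By Euclidean distance of the centred values over 4 arrays, the nearest were those of HBQ1 (0.0401), LCN9 (0.0426) and C6orf145 (0.0574). All of them had higher levels on both miR-511 arrays than on both control arrays, as DBP did. That order follows from choosing them by nearness to DBP on these same arrays, and it describes likeness over 4 arrays only.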

How the data were processed

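Cy3-labelled RNA was hybridised to Agilent 4x44K v2 arrays. Per the file headers, the deposited scanner values are processed intensity, background-subtracted by the authors' Feature Extraction software (module 10.7.3.1 in the header, 10.5.1.1 in the submitters' processing notes), with probe positions on hg19. The log2 table, which the authors normalized with limma and deposited beside the scanner files, has ranks that equal those of the intensities (Spearman correlation 1) and served as an alternative.

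Here spots marked as outliers (232 to 301 per array) were left out, and log2 processed intensities of the 43118 non-control spots were quantile normalized and averaged per probe. Tested probes had to be well above background, per the scanner's mark, on each of the 2 arrays of 1 or both mimics. limma 3.58.1 in R 4.3.3 fitted mimic, and separately experiment, over all 22638 tested probes. A probe was called at an unadjusted two-sided p below 0.05, the study's threshold for the moderated test, and Benjamini-Hochberg adjusted p is given beside it. The study's further t-test over identical replicate probes was not applied. The procedure was tested on simulated data.

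Named genes were all 10 clock genes, each represented by its brightest probe with the others beside it, called probes of the pathway list, and the 3 probes nearest in pattern to the member with the widest range. A few genes of the pathway and marker lists are counted but not reported here by name. Members and lists were chosen with earlier results of these data known. The labels give both mimics the same 2 experiment numbers and the methods name independent experiments; arrays of 1 experiment deviated together across probes (correlation 0.271), and the block by experiment is given where it changes a call. The p-values measure the spread among these arrays only, which limma moderates over all tested probes and the plain test takes from each probe alone. RefSeq names, by accession, matched all 13 probes.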

Additional observations from a re-analysis of the deposited data

How the results depend on the processing

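Of the 13 clock probes, 2 were called by mimic. The number was 1 with normexp background correction, 1 (of 12 tested) where all 4 arrays had to be above background, 1 with the replicate block, 1 with an intensity trend in eBayes, 0 with the plain test of each probe, and 0 to 1 when 1 array was left out. With the replicate block, which pairs arrays by experiment, the dimmer PER3 probe kept its log2 difference of -0.45 but had an unadjusted limma p of 0.0567, and DBP remained called. By experiment 0 of 13 were called under every alternative run. Of the other clock pathway probes, the number called by mimic went from 0 to 1 of 22 without a filter on dim probes (a probe above background on no array), to 1 with the plain test (NFIL3), and was 0 to 1 when 1 array was left out. By experiment it went from 1 to 2 with normexp (ARNTL2 added) and was 0 to 1 when 1 array was left out.

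These directions turned: with normexp the brighter PER2 probe gave -0.072 by mimic and 0.11 by experiment, the dimmer PER3 probe 0.062 by experiment, CRY2 0.025 by mimic and BHLHE40 -0.0017 by experiment, and with 75th percentile scaling the brighter PER3 probe gave -0.012 by experiment. Leaving out 1 array gave log2 differences that spanned 0 by mimic for PER1 (-0.10 to 0.18), the brighter PER2 probe (-0.040 to 0.13), the dimmer PER2 probe (-0.011 to 0.18), CRY1 (-0.0017 to 0.22) and CRY2 (-0.14 to 0.040). By experiment they spanned 0 for PER1 (-0.20 to 0.034), the brighter PER2 probe (-0.14 to 0.0046), the dimmer PER2 probe (-0.18 to 0.021), the brighter PER3 probe (-0.040 to 0.11), the dimmer PER3 probe (-0.41 to 0.26), the dimmer CLOCK probe (-0.30 to 0.013), DBP (-0.35 to 0.084) and BHLHE40 (-0.041 to 0.12). None of these values was past the threshold as reported, and the cause was not tested.

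Over all probes the 498 called by mimic became 265 with normexp, 1029 without a filter, 894 with the replicate block, 285 with the trend, and 516 to 1379 when 1 array was left out. The 3074 called by experiment became 1863 to 3221 when 1 array was left out, the lowest without the control array of experiment 2. Limits: 2 arrays per group, 4.14 total degrees of freedom for the comparison by mimic, and, for both PER3 probes, signal close to background.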
